A study of Homo sapiens with 4 samples.

Results

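Mitochondrial protein import, chaperone and protease genes were followed on 4 microarrays of human blood cancer lines given atovaquone or its vehicle. Members were the genes whose symbol in the probe annotation begins with TIMM or TOMM and a number, which gave 21 genes, and 15 genes named one by one, so 36 of the 18417 genes with a probe set of their own. The rule reads symbols and no array value, though it was written with earlier results of these arrays known. U266 is a multiple myeloma line and K562 comes from chronic myeloid leukaemia. The U266 groups were DMSO vehicle and 15 µM atovaquone, each for 2 h. The K562 groups were vehicle and 20 µM atovaquone, each for 5 h. All were in RPMI-1640 with fetal bovine serum, into which they had been resuspended the day before. Atovaquone is an antimalarial hydroxynaphthoquinone that competes with ubiquinol at respiratory complex III. Each group was 1 array, so no value has a replicate, no test was possible, and every ratio describes 1 pair of arrays. Dose, exposure time and cell line differ together between the 2 treated groups and cannot be told apart. Exposure time and cell line also differ together between the vehicle groups.

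Nearly all mitochondrial proteins are made in the cytosol and enter through the TOM complex of the outer membrane. Most matrix proteins then pass the TIM23 channel of the inner membrane, pulled by the mitochondrial HSP70 motor, which needs the membrane potential and ATP. The processing peptidase removes their targeting signal, and the HSP60 and HSP10 chaperonin folds them. Carrier proteins take another route, escorted by small TIM chaperones to the TIM22 channel. Proteases such as LONP1 and the AAA proteases of the inner membrane remove damaged proteins, and OMA1 is a stress-activated protease that can pass a signal from mitochondria to the integrated stress response. When the organelle's folding capacity is strained, nuclear genes for its chaperones and proteases can be induced, a programme called the mitochondrial unfolded protein response.

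Promoter sequences are shown for some of the members with matches to the elements searched, namely HSPD1, HSPE1, DNAJA3, LONP1, TIMM22 and PMPCB. RefSeq start-site windows on GRCh38.p14, from 250 bases before to 50 after the start, were matched by gene identifier for 32 of the 36 members, in 36 windows since a gene can have several starts. CLPP, GRPEL1, TIMM8B and YME1L1 were not matched. The chaperonin genes HSPD1 and HSPE1 lie head to head on chromosome 2. HSPD1 has 2 starts. The stretch between the HSPE1 start and the HSPD1 start closest to it is 104 bases long, at chr2:197500275-197500378. It is printed on the strand of HSPE1. A second stretch of 30 bases, at chr2:197500061-197500090 on the strand of HSPD1, begins 250 bases before the other HSPD1 start, at 197499840. It lies downstream of the HSPD1 start closest to HSPE1, at 197500274. Capitals in this second stretch mark overlapping heat shock elements, the binding sequence of HSF1, searched as GAANNTTC or TTCNNGAA. Capitals in the first stretch mark the sequence of NRF1, a regulator of nuclear genes for mitochondria, searched as GCGCANGCG on both strands.
HSPE1 and HSPD1: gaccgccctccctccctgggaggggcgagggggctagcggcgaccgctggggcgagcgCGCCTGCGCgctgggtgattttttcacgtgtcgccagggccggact
HSPD1: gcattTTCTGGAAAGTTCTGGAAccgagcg

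Of the 36 windows, 4 held the 2-unit heat shock element, in HSPD1, HSPA9, TIMM10 and TOMM70, against 13.5% of all 35116 windows. The 3-unit form, which adds 1 more inverted unit to either sequence and so overlaps it, was in 1 member window, that of HSPD1, and in 0.490% of all windows. The NRF1 sequence was in 14 member windows, or 38.9%, against 7.52% of all windows, and belonged to 13 members: CLPX, DNAJA3, HSPD1, HSPE1, LONP1, OMA1, SPG7, TIMM13, TIMM29, TIMM9, TOMM20, TOMM34 and TOMM40. HSPD1 and HSPE1 share 1 such match, in the stretch between their starts. SPG7 has overlapping windows that hold the same matches. DNAJA3, a matrix co-chaperone of HSP70, has 4 matches, all within the 100 bases before its start, at chr16:4425768-4425867. LONP1, the main soluble matrix protease, has overlapping matches on both strands before the more upstream of its 2 starts. They are shown within chr19:5720618-5720677, which runs from 225 to 166 bases before that start. The composite element of ATF4 and CHOP, searched as TGATGNAA on both strands, was in 2 member windows, of TIMM22 and PMPCB, against 3.62% of all windows. It is shown in the opposite orientation to the letters searched, within chr17:997024-997083 and chr7:103297185-103297244.
DNAJA3, NRF1 sequence: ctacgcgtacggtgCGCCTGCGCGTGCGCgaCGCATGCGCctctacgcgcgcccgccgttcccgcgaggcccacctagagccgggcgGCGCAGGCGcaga
LONP1, NRF1 sequence: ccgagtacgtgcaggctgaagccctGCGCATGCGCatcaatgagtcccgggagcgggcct
TIMM22, composite element: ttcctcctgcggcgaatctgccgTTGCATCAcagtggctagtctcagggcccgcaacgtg
PMPCB, composite element: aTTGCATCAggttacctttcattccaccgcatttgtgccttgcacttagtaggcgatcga

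The DNAJA3, TIMM22 and PMPCB stretches are on the plus strand and that of LONP1 on the minus strand, each 5′ to 3′ in the direction of its gene. The sequence CCGGAAGT of ETS factors such as GABP was in 5 member windows (TIMM10, TIMM10B, TIMM29, TOMM20 and TOMM70) against 4.14% of all windows. The YY1 sequence AAGATGGC was in 4 (DNAJA3, PMPCA, TIMM50 and TOMM40L) against 2.89%. A match describes letters in a window and no binding was measured.

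The arrays' median intensities lay between 314 and 340, and their floors, set at each array's 40th percentile over annotated probe sets, between 305 and 331. A gene is called measured where neither array of a comparison fell below its floor. Of the 36 members, 34 were at or above the floor on all 4 arrays. TOMM20L, a TOMM20 relative, and the probe set annotated to TIMM23 alone were under it on every array, with intensities of 175 to 265 and 229 to 287. Of the lines' defining markers, 7 of 8 plasma cell markers were at least 2-fold higher on the U266 vehicle array, or had a bound past that, and 6 of 7 erythroid markers with a probe set of their own on the K562 vehicle array. JCHAIN, the joining chain of secreted immunoglobulin, had 10691 in U266 and 49.3 in K562, and the embryonic haemoglobin gene HBZ 370 and 6725. Plasma cell marker CD38 was an exception, with 396 and 668, and erythroid marker EPOR fell short of 2-fold, with 380 and 653. Of 9 markers of other cell types, 2 had bounds past 2-fold higher in K562 and 0 in U266. These were LYZ, with 138 in U266 and 3113 in K562, and EPCAM, with 63.5 and 1975. RNA came from whole cultures, so fewer cells with a transcript and less of it per cell cannot be told apart. For scale, in genes with 2 measured probe sets the log2 ratios of atovaquone to vehicle differed by a median of 0.032 in U266 and 0.035 in K562, and by more than 0.32 and 0.36 in 5% of genes. Between the vehicle arrays they differed by a median of 0.11, and by more than 1.07 in 5% of genes. These spreads leave out any difference between cultures.

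In U266, the matrix chaperonin genes stood highest among the members after 2 h of atovaquone. HSPD1, which encodes HSP60, had an intensity of 5795 with vehicle and 8093 with atovaquone, a log2 ratio of 0.49 or 1.41-fold. HSPE1, which encodes its lid HSP10, had 3652 and 4614, a log2 ratio of 0.35 or 1.27-fold. Both chaperonin genes were higher on the treated array, and they ranked 120 and 248 from the top of 10731 measured genes. No measured member reached 1.5-fold in either direction, where 0.857% of all measured genes were at least 1.5-fold higher and 0.0932% at least 1.5-fold lower. At 1.2-fold, a limit chosen after the values were seen, HSPD1 and HSPE1 were the 2 members higher and 0 were lower, against 4.06% and 3.08% of all genes. A limit of 1.25-fold, tried first, called the same pair and 0 lower, against 2.67% and 1.57%. With only 2 of 34 measured members called at either limit, their share is not read as different from the background. Of the 34 measured members, 22 lay above 0, their median log2 ratio was 0.038 against −0.0001 for all measured genes, and 32 lay within 0.2 of 0.

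The other matrix chaperones of U266 cells differed less between the arrays. HSPA9, the mitochondrial HSP70 (mortalin), went from 5272 with vehicle to 5650 with atovaquone, a log2 ratio of 0.11. DNAJA3, a J-domain co-chaperone of HSPA9, had 2366 and 2500, a ratio of 0.089. GRPEL1, the nucleotide exchange factor that recharges HSPA9, had nearly equal intensities of 1477 and 1479. All 5 chaperones thus lay above 0, over a range from 0.012 to 0.49. Without them the median of the 29 other measured members was 0.017.

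Genes with TOMM and TIMM symbols in U266 lay close to 0 on both sides. The 6 measured genes with TOMM symbols ran from −0.079 for TOMM40L, a relative of the channel protein, to 0.073 for the receptor TOMM20. TOMM40, the channel itself, had 997 with vehicle and 985 with atovaquone, and the receptor TOMM70 had 1773 and 1775. TIMM44, which anchors the HSP70 motor to the TIM23 channel, was the highest of the 5 measured TIM23 genes at 0.098. The lowest member in U266 was TIMM8A, a small TIM chaperone whose loss causes deafness-dystonia syndrome, with 1223 and 1120, a log2 ratio of −0.12. TIMM10B and TIMM22, both of the carrier route, followed at −0.089 and −0.084.

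Both subunits of the processing peptidase were slightly higher in U266 with atovaquone, PMPCA at 0.16 with intensities of 994 and 1102, and PMPCB at 0.083 with 3624 and 3814. Of 8 proteases, 7 lay above 0. CLPX, the unfoldase that feeds the CLPP protease, had 958 and 1060, a ratio of 0.16, beside 0.017 for CLPP. LONP1 had 907 and 964, a ratio of 0.098. The inner membrane proteases YME1L1, AFG3L2 and SPG7 stood at 0.068, −0.0011 and 0.041, HTRA2 of the intermembrane space at 0.040 and OMA1 at 0.055. No protease gene in U266 lay farther than 0.16 from 0.

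**Figure D1:**
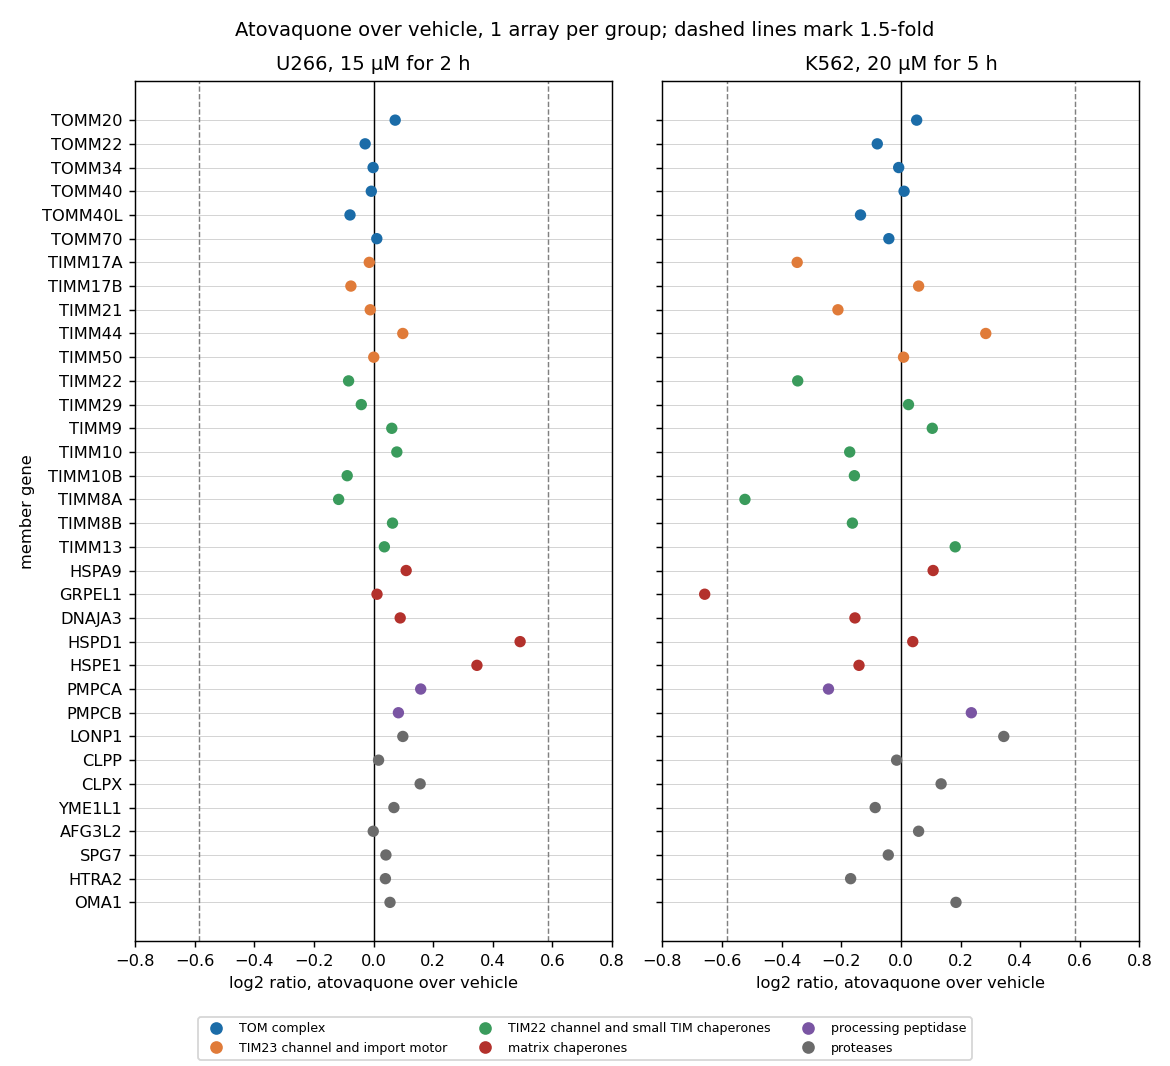
Log2 ratio of atovaquone to vehicle (x axis) for the 34 measured members (y axis, coloured by role) in U266 at 15 µM for 2 h and in K562 at 20 µM for 5 h, each point from 1 pair of arrays, with dashed lines at 1.5-fold. In U266 the points gather near 0 apart from HSPD1 at 0.49 and HSPE1 at 0.35, and in K562 they spread from −0.66 for GRPEL1 to 0.34 for LONP1.

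In K562, members went both ways after 5 h of atovaquone, with an import motor subunit and carrier-route genes at the low end and the matrix protease LONP1 at the high end. GRPEL1 had an intensity of 1840 with vehicle and 1162 with atovaquone, 1.58-fold lower, and ranked 44 from the bottom of 10756 measured genes. TIMM8A had 1605 and 1113, a log2 ratio of −0.52 or 1.44-fold lower. On the high side LONP1 had 1019 and 1289, a log2 ratio of 0.34 or 1.27-fold higher, at rank 611 from the top. GRPEL1 was the single member past 1.5-fold, where 1.42% of all measured genes were at least 1.5-fold higher and 0.697% lower. At 1.2-fold, 2 members were higher (LONP1 and TIMM44) and 4 lower (GRPEL1, TIMM8A, TIMM17A and TIMM22), against 9.61% and 9.04% of all genes. At the 1.25-fold tried first, TIMM44 was not called, which left 1 higher and the 4 lower, against 6.58% and 5.83%. With so few members called at either limit, their shares are not read as different from the background. Of the 34 measured members, 15 lay above 0, or 44.1%, where 48.8% of all measured genes did. Their median was −0.028 against −0.0057 for all measured genes, and 25 lay within 0.2 of 0.

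Partners that work in 1 complex did not all go the same way in K562. In the HSP70 motor, HSPA9 had 6630 with vehicle and 7121 with atovaquone, a log2 ratio of 0.11, while its exchange factor GRPEL1 stood at −0.66. TIMM44, which tethers HSPA9 to the channel, had 1328 and 1612, a ratio of 0.28. Motor genes thus lay on both sides of 0. The chaperonin genes stood at 0.040 for HSPD1, with 7755 and 7944, and −0.14 for HSPE1, with 5487 and 4960. DNAJA3 stood at −0.15.

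The 2 TIMM17 genes, which encode alternative subunits of the TIM23 channel, also parted in K562. TIMM17A had 1627 with vehicle and 1274 with atovaquone, a log2 ratio of −0.35, and TIMM17B had 1770 and 1838, a ratio of 0.059. TIMM21, which links TIM23 to TOM, stood at −0.21, and TIMM50, the receptor of TIM23, at 0.0087. In the processing peptidase, whose subunits form a heterodimer, PMPCA had 1989 and 1675, a ratio of −0.24, and PMPCB had 2834 and 3327, a ratio of 0.24. The catalytic subunit PMPCB was therefore higher with atovaquone and PMPCA lower.

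Of 8 genes of the carrier route in K562, 5 lay below 0, where 51.1% of all measured genes did. Their median was −0.16. TIMM22, the channel, had 2553 with vehicle and 2001 with atovaquone, a log2 ratio of −0.35. The small TIM chaperones work in pairs, and TIMM8A at −0.52 stood opposite its partner TIMM13 at 0.18. TIMM9 and TIMM10, partners in the main carrier chaperone, stood at 0.11 and −0.17. TIMM10B, TIMM8B and TIMM29 stood at −0.16, −0.16 and 0.025. In contrast the 6 measured genes with TOMM symbols kept within 0.14 of 0 on the probe sets used. They ran from −0.14 for TOMM40L to 0.053 for TOMM20, with TOMM40 at 0.011, TOMM34 at −0.0076, TOMM70 at −0.041 and TOMM22 at −0.079. The other probe set of TOMM22 stood lower, at −0.18.

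Among the proteases in K562, LONP1 was followed by OMA1, with 1164 and 1319 and a log2 ratio of 0.18, and CLPX, with 1109 and 1213 and a ratio of 0.13. HTRA2, a serine protease that is released in apoptosis, was the lowest at −0.17, with 3066 and 2718. CLPP, YME1L1, AFG3L2 and SPG7 stood between −0.086 and 0.059. The group was thus evenly divided, with 4 of 8 members above 0.

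**Figure D2:**
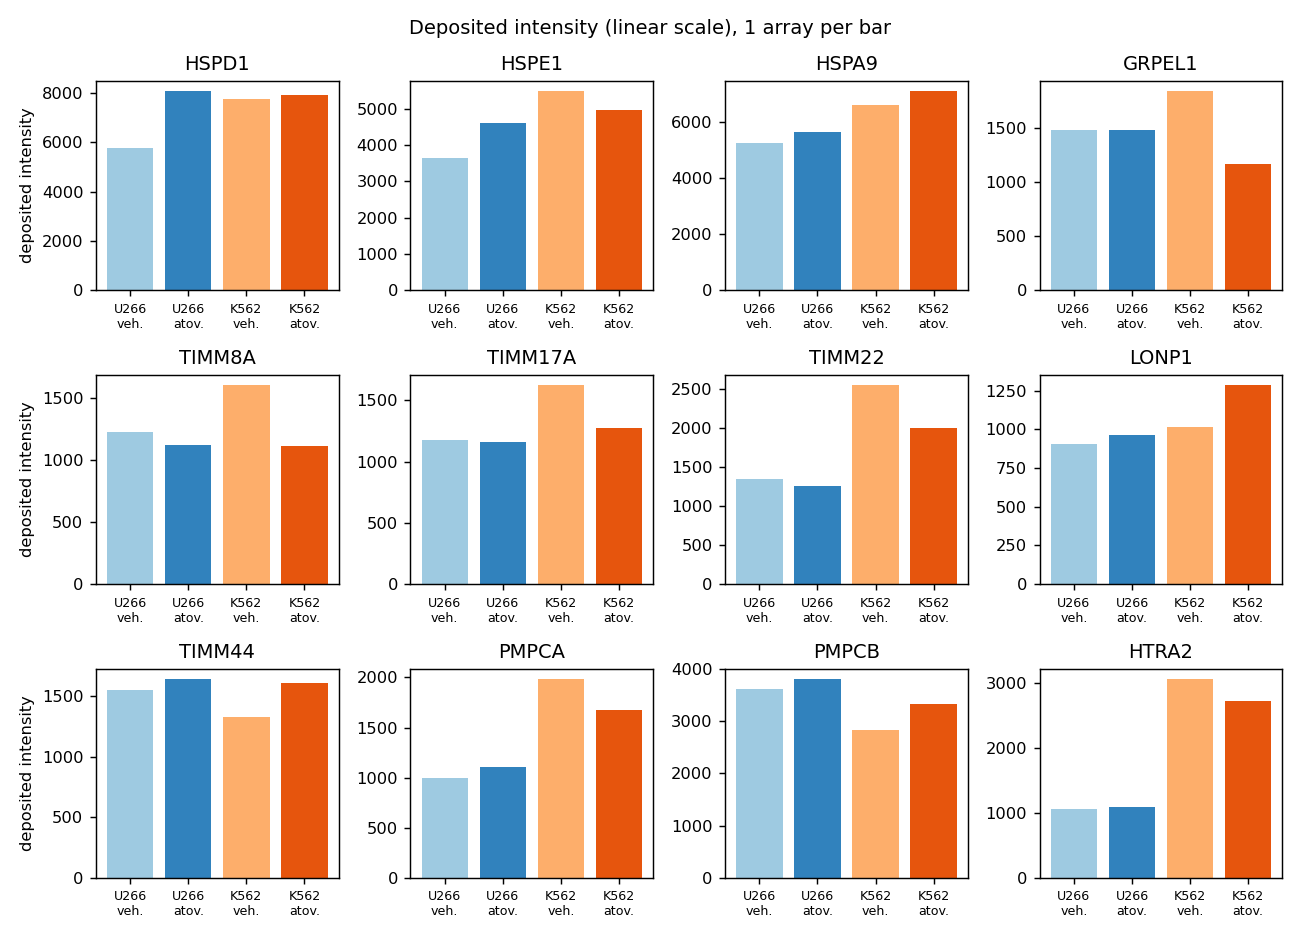
Deposited intensity on a linear scale (y axis, from 0, scaled separately for each gene) of 12 members on the 4 arrays, 1 array per bar and so no error bar. HSPD1 and HSPE1 differ most between the U266 bars. Past a log2 ratio of 0.2 from 0, GRPEL1, TIMM8A, TIMM17A, TIMM22 and PMPCA are lower and LONP1, TIMM44 and PMPCB higher in the treated K562 bar.

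Set side by side, 11 members lay above 0 and 8 below 0 in both lines, 11 lay above 0 in U266 and below 0 in K562, and 4 the other way round, which is 32.4%, 23.5%, 32.4% and 11.8% of the 34. Of the 9222 genes measured in both lines, the shares in the same order were 26.2%, 27.3%, 23.8% and 22.7%. HSPD1 and HSPE1 had log2 ratios of 0.49 and 0.35 in U266 and 0.040 and −0.14 in K562. GRPEL1 and TIMM8A had 0.012 and −0.12 in U266 and −0.66 and −0.52 in K562. The difference between lines was not tested, and the doses and times were not the same. The 13 members with an NRF1 sequence had median ratios of 0.061 in U266 and 0.040 in K562, and the 17 measured members with a window but no such match −0.0011 and −0.14. The ranges of both sets overlapped in each line. Between the vehicle arrays, U266 minus K562, the medians had the opposite order, −0.40 with a match and −0.11 without. GRPEL1, the lowest member in K562, had no window and is in neither set.

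**Figure D3:**
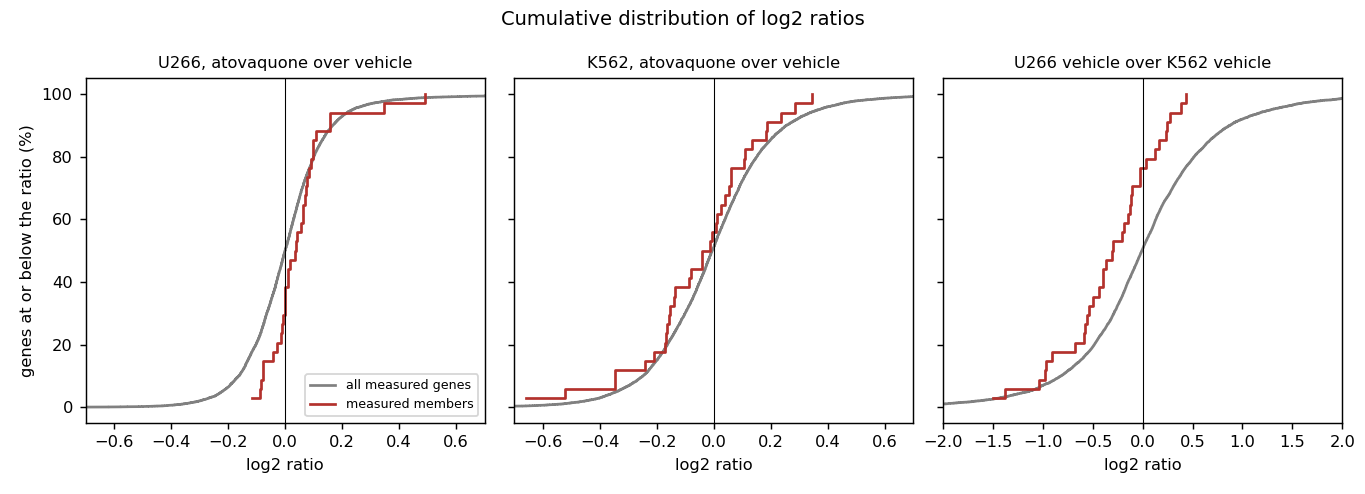
Share of genes in percent (y axis) at or below each log2 ratio (x axis) for all measured genes and for the 34 measured members, in the U266 and K562 drug comparisons and between the vehicle arrays. The members' curve stays near that of all genes in both drug panels, with medians of 0.038 and −0.028, and lies to the left of it between the vehicle arrays, with a median of −0.30.

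Between the vehicle arrays most members were higher in K562 than in U266. The vehicle exposure was 2 h in U266 and 5 h in K562, so cell line and exposure time cannot be told apart here. Of the 34 measured members, 26 were higher in K562 and 8 in U266. The share higher in K562 was 76.5%, against 50.5% of all 9483 measured genes. The members' median log2 difference, U266 minus K562, was −0.30 against −0.0071 over all measured genes. HTRA2 had an intensity of 1063 in U266 and 3066 in K562, 2.84-fold higher in K562. TIMM8B had 869 and 2297, 2.60-fold higher in K562, and TOMM40 997 and 2077, 2.05-fold higher. These were the 3 members at least 2-fold higher in K562, a level that 6.97% of all measured genes reached. No member was at least 2-fold higher in U266, as 7.97% of genes were. TOMM40, read on a single probe set, had a difference of −1.03. Probe sets of the same gene differed by more than 1.07 in 5% of genes here. PMPCA, OMA1 and TIMM22 lay just short of 2-fold at −0.97, −0.97 and −0.91. On the other side CLPP had 3944 in U266 and 2962 in K562, a difference of 0.44, and PMPCB 3624 and 2834, a difference of 0.38. Of the peptidase subunits, PMPCA was thus higher in K562 and PMPCB in U266. TIMM17A and TIMM17B were likewise divided, at −0.44 and 0.28.

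By role, 7 of 8 carrier-route genes, 7 of 8 proteases and 4 of 5 chaperones were higher in K562. So were 4 of 6 genes with TOMM symbols and 3 of 5 TIM23 genes. These groups are small, and 50.5% of all measured genes were higher in K562. HSPA9, HSPD1 and HSPE1 differed by −0.31, −0.40 and −0.56. Mitochondrial ribosomal protein genes showed a like shift between the vehicle arrays, with 52 of 71 measured genes higher in K562 and a median of −0.33.

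**Figure D4:**
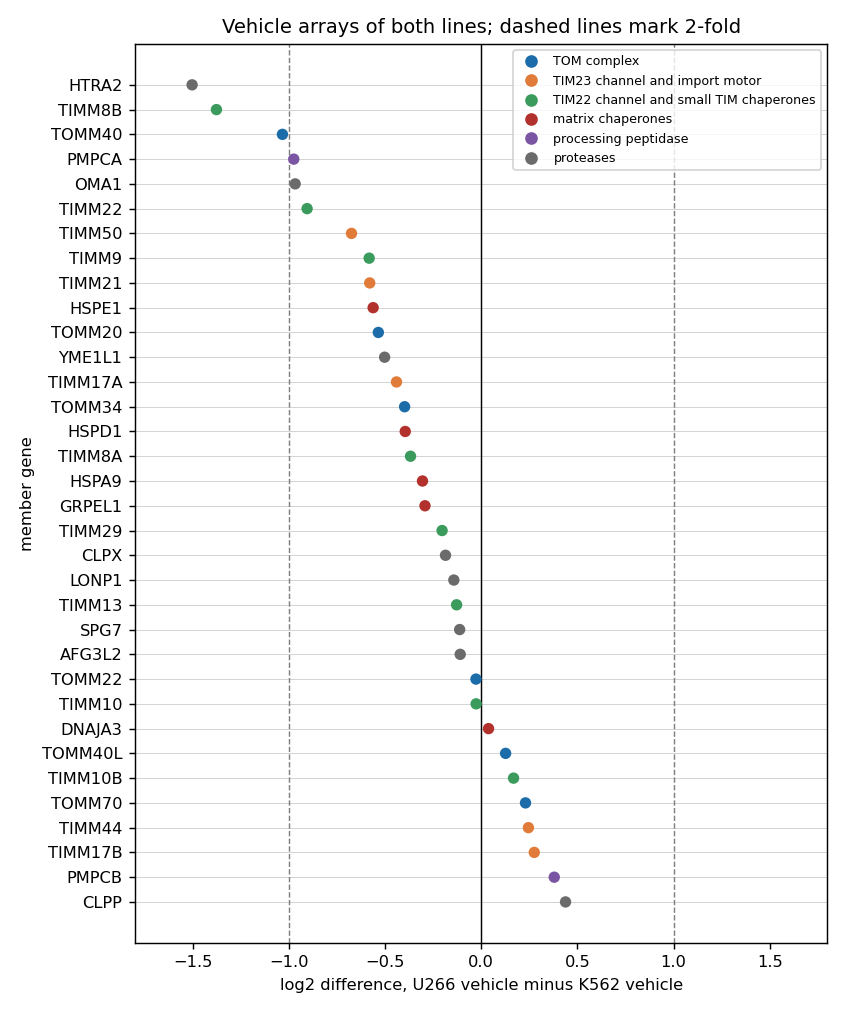
Log2 difference in intensity, U266 vehicle minus K562 vehicle (x axis), for the 34 measured members in order (y axis, coloured by role), 1 array per line, with dashed lines at 2-fold. HTRA2, TIMM8B and TOMM40 lie beyond 2-fold on the K562 side, and CLPP at 0.44 is the highest on the U266 side.

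TOMM22 and TIMM8B had 2 probe sets each, which bears on their values. For TOMM22, a receptor at the TOM entry, the brighter probe set was nearly equal in the vehicle arrays at −0.028, and the dimmer, with 1985 in U266 and 3192 in K562, gave −0.66. For TIMM8B the one used gave −1.38 and the other −0.81, so TIMM8B passes 2-fold on 1 of its 2 probe sets. In the drug comparisons the probe sets of TIMM8B gave 0.064 and −0.071 in U266 and −0.16 and −0.30 in K562. Those of TOMM22 gave −0.028 and 0.062 in U266 and −0.079 and −0.18 in K562.

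Of 47 other genes of import, folding and quality control, 42 had a probe set of their own, of which 38 in U266 and 39 in K562 were measured. At 1.5-fold 0 of them were called in either direction. In U266, CHCHD4, which drives oxidative import into the intermembrane space, stood highest at 0.29 with intensities of 759 and 919, and CHCHD3, of the cristae-organising complex, followed at 0.19. The lowest there were ROMO1, a small inner membrane protein, at −0.20 and IMMP1L, a signal peptidase subunit, at −0.19. The U266 median was −0.010. In K562, 27 of 39 lay above 0, or 69.2%, where 48.8% of all measured genes did, and their median was 0.056. The highest were DNAJC19, a J-domain subunit of the import motor, at 0.29 with 1218 and 1488, and GRPEL2, the GRPEL1 relative, at 0.28 with 3222 and 3908. GRPEL2 thus stood above 0 in K562 while GRPEL1 stood at −0.66. DNAJC11 and LETM1 were the lowest at −0.24 and −0.15.

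Other lists gave values for scale. In U266, 15 measured HSF1 heat shock genes, most of them cytosolic, all lay above 0, with a median of 0.41 and 4 of them at least 1.5-fold higher. These 4, named after their values were seen, were DNAJB1 at 2.23, BAG3 at 1.95, HSPH1 at 1.32 and HSPB1 at 0.64, all chaperones or co-chaperones. Over the same arrays the mitochondrial chaperonin genes, at 0.49 and 0.35, lay near that median. In K562, 11 of the 15 lay below 0, with a median of −0.14, and 1 was past 1.5-fold, DNAJB1, with 1554 and 872, a ratio of −0.83 or 1.78-fold lower. Mitochondrial ribosomal protein genes had medians of −0.0045 in U266 and 0.016 in K562, with 0 of 72 measured past 1.5-fold in either line. The highest of them in U266, at 0.5849, lay just short of that limit, a log2 ratio of 0.585. In K562, 1 further gene had a bound at least 1.5-fold higher.

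Regulators of the mitochondrial and integrated stress responses were read on the same arrays. DDIT3, which encodes CHOP, had 1153 with vehicle and 2661 with atovaquone in U266 and 783 and 3331 in K562, log2 ratios of 1.22 and 2.09. ATF5, a transcription factor of the mitochondrial unfolded protein response, had 886 and 778 in U266, a ratio of −0.18, and 639 and 923 in K562, a ratio of 0.53. ATF4 stood at 0.097 and 0.36 in the 2 lines and CEBPB, a partner of CHOP, at 0.086 and 1.18. DELE1, the OMA1 substrate that carries the mitochondrial signal, stood at 0.12 and 0.32, and EIF2AK1, the kinase it activates, at −0.019 and 0.13. HSF1 itself stood at −0.016 and 0.0066. Of chaperones elsewhere in the cell, HSPA5 of the endoplasmic reticulum stood at 0.0076 and 0.45, HSPA8 of the cytosol at 0.14 and −0.074, and its co-chaperone DNAJA1 at 0.34 and −0.33, both also on the heat shock list.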

How the data were processed

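Total RNA was labelled as biotinylated cRNA, per the labels' protocols. The authors deposited 1 processed intensity per probe set and array on a linear scale. How they corrected background, normalised and summarised probes is not given in the sources used here. Of 33252 probe sets, 19460 had 1 gene symbol in the platform annotation and were used, giving 18417 genes, each represented by its brightest probe set on average. All 36 members matched a current RefSeq gene with the same symbol. Values below an array's floor (the 40th percentile) were raised to it, log2 was taken, and ratios were centred on the median of measured probe sets, removing −0.0096 in U266, −0.0048 in K562 and −0.025 between vehicles. With 1 array per group genes were counted at 1.5-fold (2-fold between lines). Members and lists were chosen with earlier results of these data known. All members could be named. Other pathway genes were named past 1.5-fold or as the 2 highest and lowest per line, and regulators whatever their value. Markers and heat shock genes were named after their values were seen. Alternatives were the floor, quantile normalisation, centring, choice of probe set and the fold. Python 3.11.15 and pandas 2.3.3 were used, and the calculation was tested on simulated data.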

Additional observations from a re-analysis of the deposited data

How the results depend on the processing

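With 1 array per group no replicate could be left out and no paired analysis was possible because each group has a single array. Under each of 7 planned settings, 0 members passed 1.5-fold in U266 in either direction, and in K562 1 was lower (GRPEL1) and 0 higher. Medians ran from 0.027 to 0.038 in U266 and from −0.036 to −0.011 in K562. Members at least 2-fold higher in K562 vehicle numbered 5 with no floor, against 3, with PMPCA and OMA1 at −1.04 and −1.03, and 4 with the floor at the 20th. Without a floor all 34 ratios shifted by −0.061, which is the change in the centre removed, from −0.025 to 0.036. The count was 2 without the members that have several probe sets. With the fold at 1.2, chosen after seeing the data, 2 members were higher in U266 (0 lower), and 2 higher and 4 lower in K562. At the 1.25 tried first these were 2, 0, 1 and 4. Among members past the fold limit, 0 changed sign under these settings. TOMM22 between vehicles, not past it, ran from −0.34 to 0.021. GRPEL1 in K562 ran from −0.66 to −0.65, HSPD1 in U266 from 0.46 to 0.50 and HSPE1 from 0.34 to 0.36. Ratios moved by 0.1 or more, or became bounds, for 1 member in U266 and 3 between vehicles when the floor was raised to the 60th percentile, and for 2 between vehicles with probe sets averaged. At that 60th percentile OMA1, TIMM29 and TOMM40L had no ratio in U266, and TOMM40L none in K562 or between vehicles. Signal near the floor limits TOMM20L and TIMM23, which have no ratio.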

Other observations

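Symbols of 4 further genes of the rule, TIMM23B, TOMM5, TOMM6 and TOMM7, occur only on probe sets that the annotation assigns to several genes, so their values name no single gene. A pair of probe sets is assigned jointly to TIMM23 and TIMM23B, which encode forms of the TIM23 channel protein. On the first, intensities were 4424 and 4490 on the U266 vehicle and atovaquone arrays and 4972 and 4203 on the K562 ones, with log2 ratios of 0.031 and −0.24. On the other they were 3754, 3892, 4452 and 3886, with ratios of 0.062 and −0.19. Both were thus lower with atovaquone in K562 and nearly equal in U266.

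The probe set shared by TOMM6 and PRICKLE4 had 213 and 233 in U266, under the floor, and 2427 and 2293 in K562. The one shared by TOMM7 and C4orf46 had 522 and 547 in U266 and 1214 and 1166 in K562, a vehicle difference of −1.19. The one shared by TOMM5 and FBXO10 had 2259 and 2204 in U266 and 3326 and 3021 in K562, a vehicle difference of −0.53. All 3 were higher in K562, and which of their genes gave the signal was not tested.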
